A study of Mus musculus with 16 samples.

Results

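Interferon response genes are the genes that cells switch on when they sense interferon, and 42 of them, named by symbol, are described here in mouse kidney. All 42 were found among the 13430 genes of the deposited table, and all 42 passed the filter on low values, which left 12943 genes tested. RNA was measured in slices of 3 mm, cut across the middle of the kidney, from 16 female C57BL/6 mice aged 2 to 3 months, in 4 groups of 4 animals. The first group was wild type and drank water. The second was wild type and for 7 days drank sodium bicarbonate dissolved at 250 mM (pH 8.5). The third and the fourth were labelled IRR(-/-), a knockout of the alkali-sensing receptor gene Insrr, and drank water or the same bicarbonate solution. Every animal had fasted for 12 h with its drink at hand, so no group shows a fed kidney. The series asks how a kidney without IRR answers an alkali load. The labels do not give the deleted part of Insrr, and they record no litter, date or sequencing batch, so a batch that followed genotype cannot be told apart from genotype.

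Type I interferons (alpha and beta) signal through the receptor chains Ifnar1 and Ifnar2 to the kinases Jak1 and Tyk2. These switch on a transcription factor complex that holds Stat2 and Irf9 and binds a promoter element called ISRE. Interferon gamma signals through Ifngr1 and Ifngr2 to factors that bind a second element called GAS. The induced genes restrict viruses, mark proteins with the ubiquitin-like ISG15, remodel membranes around intracellular pathogens and load peptides onto MHC molecules. Uninfected tissue, kidney included, keeps a low tonic level of many of them.

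The unit throughout is RPKM as deposited, which scales reads to transcript length and to a library size. How that size was set, and whether it was adjusted for very abundant genes, is not given in the sources. Differences are log2 differences of group means on the log2(RPKM + 0.1) scale, which understates the change of low genes. They carry a standard error (SE) from 1 limma fit of all 16 libraries, and adjusted p values follow Benjamini and Hochberg across the 12943 genes, with a threshold of 0.05. Median RPKM lay between 8.44 and 8.92 in the 16 libraries, and their read depth is unknown. Summed RPKM was 1.36e+06 to 1.60e+06 in wild-type libraries and 2.42e+06 to 2.93e+06 in knockout libraries. Insrr had 4.20 to 6.73 RPKM in the 8 wild-type animals and 3.31 to 4.11 in the 8 knockout animals. It was lower in the knockout by 0.69 on the log2 scale on water (SE 0.13, limma adjusted p = 0.00180) and by 0.49 on bicarbonate (SE 0.13, limma adjusted p = 0.0182). Mitochondrially encoded genes held 69.6% to 74.2% of the summed RPKM in wild-type libraries and 82.6% to 84.9% in knockout libraries, with no overlap between the genotypes. Each such share follows genotype, and its part in the differences between genotypes was not tested. The slices carried tubule markers at high levels, with Umod of the thick ascending limb at 531 RPKM or more and Lrp2 of the proximal tubule at 168 RPKM or more in every library.

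The members were first set beside the promoter element that names their family. RefSeq promoter windows on GRCm38.p6, each 300 bases long from 250 before to 50 after a start, matched 35 of the 42 members with 43 windows. No window was used for Dhx58, Zbp1, Ifi27l2a, Usp18, Parp9, Parp14 and Iigp1. The core of the ISRE was searched as GAAANNGAAA on both strands, which reads TTTCNNTTTC on the other strand. It stood in 19 of the 43 member windows (44.2%), belonging to 18 members, and in 3.44% of all 32851 windows of the same length. The GAS core, TTCNNNGAA on both strands, stood in 12 member windows (27.9%), belonging to 12 members, and in 8.3% of all windows. The 8 members with at least 2 ISRE matches are shown because they show how tightly the copies sit. Each is printed 5′ to 3′ on the strand of its gene, with capitals marking the matched letters, which overlap where copies run into each other.
Isg15 (chr4:156200869-156200902, minus strand): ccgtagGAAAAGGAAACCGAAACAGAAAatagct
Irgm1 (chr11:48871429-48871456, minus strand): tttcaaGAAATAGAAACCGAAActgatt
Ifitm3 (chr7:141010713-141010742, minus strand): GAAAAGGAAActtctgaGAAACCGAAActg
Ifit1 (chr19:34640779-34640819, plus strand): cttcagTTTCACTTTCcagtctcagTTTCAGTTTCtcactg
Ifit3 (chr19:34583367-34583422, plus strand): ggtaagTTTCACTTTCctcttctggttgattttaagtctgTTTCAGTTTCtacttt
Oas1a (chr5:120907526-120907551, minus strand): tctcggGAAATGGAAACTGAAAatct
Bst2 (chr8:71537581-71537608, minus strand): ttccagGAAAATGAAACTGAAAggctgc
Gbp3 (chr3:142559993-142560020, plus strand): acacagTTTCAGTTTCTATTTCccagat
Isg15 held 3 overlapping matches, the first of them 78 bases before the start. The matches of Ifitm3 lay just inside its transcript, and those of the other 7 members lay before the RefSeq start. For Irgm1 the annotations differ: its GENCODE M21 span reaches 48871683 on the minus strand and so includes its matches. The windows of Irf7 and Lgals3bp held neither core, which says only that these letters are not in these windows.

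Levels of the members spanned a wide range in these kidneys. Lgals3bp, a secreted glycoprotein that binds galectins, had the highest mean over the 16 libraries at 63.0 RPKM, and Ifitm3, a membrane protein that blocks viral entry, followed at 51.3. Ddx58 (the RNA sensor RIG-I) averaged 24 RPKM, Irgm1, a GTPase of intracellular membranes, 22.9, and Ifit3, which binds foreign RNA together with Ifit1, 20.9. At the low end stood Zbp1, a sensor of left-handed nucleic acid, at 0.965, Dhx58 (the RNA sensor LGP2) at 1.18, Oas1a, a synthase activated by double-stranded RNA, at 1.21 and the immunoproteasome subunit Psmb9 at 1.84. The most variable member within groups was Irgm2, a second membrane GTPase, whose 16 values ran from 0 to 12.9 RPKM. It was listed at 0 in wild-type animal 4 on bicarbonate, while the other 3 animals of that group had 8.63, 4.55 and 7.32 RPKM. Irgm2 shares 162 exonic bases on the same strand with its neighbour Igtp in GENCODE M21, so how reads were split between them is uncertain. Of the 42 members, 26 had a within-group spread above the median of all tested genes.

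**Figure D1:**
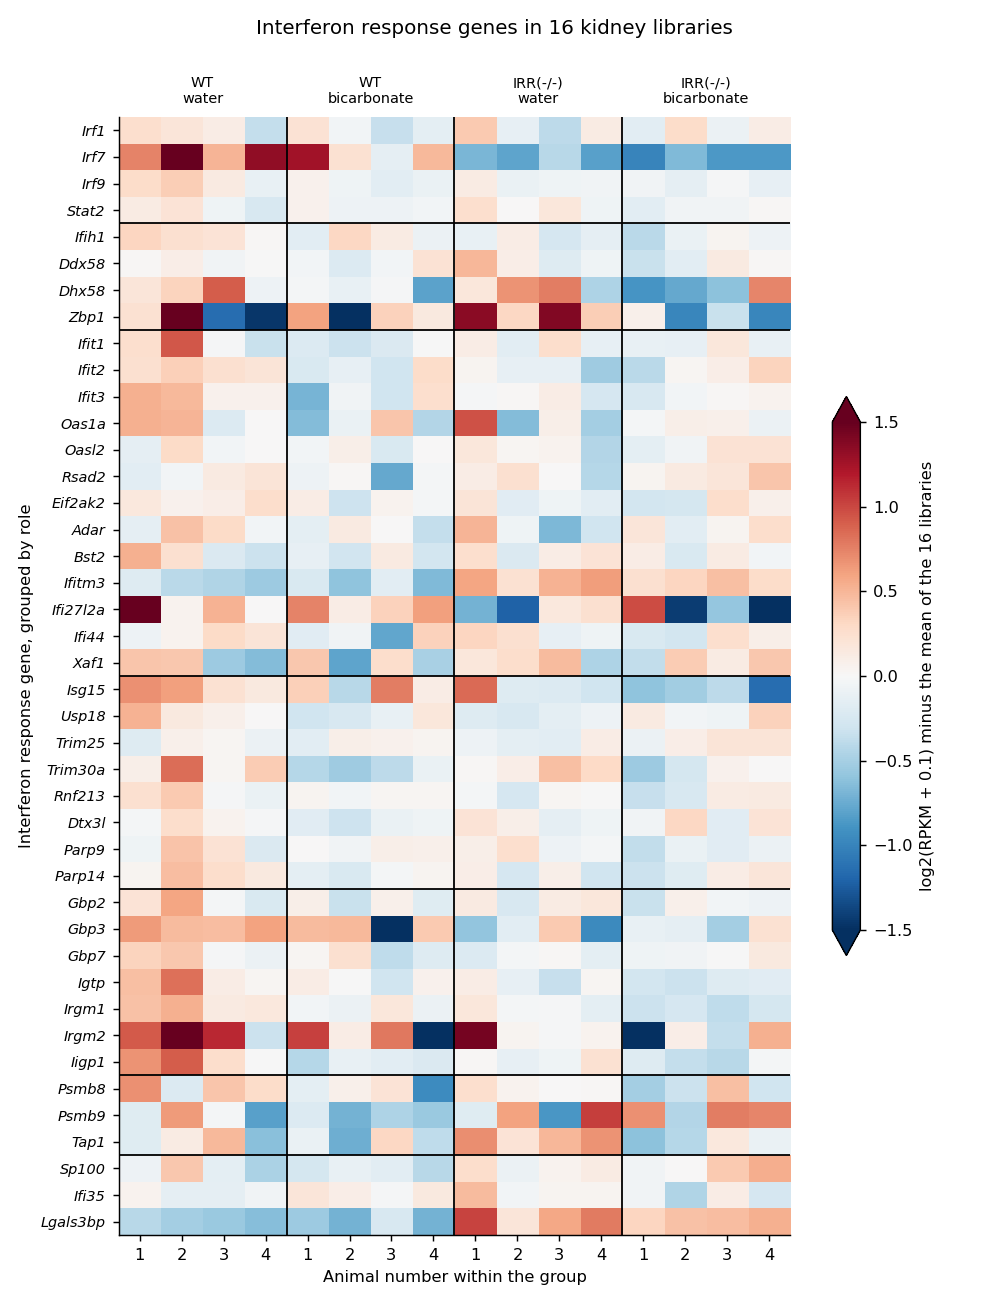
Heat map of the 42 members (rows, grouped by role) in the 16 libraries (columns, grouped by genotype and drink); colour is the log2 difference of each library from the gene's mean over all 16 libraries, cut at the ends of the scale. Lgals3bp and Ifitm3 are high and Irf7 is low in all 8 knockout libraries, and wild-type animal 2 on water is high for most rows.

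On water, 4 members differed between genotypes: Lgals3bp and Ifitm3 were higher in the knockout, and Irf7 and Irgm1 were lower. Among all tested genes 21.9% differed in this comparison, 10.1% higher and 11.8% lower in the knockout, so the members' count of 4 of 42 was below the background. The median log2 difference of the members was -0.15, beside -0.05 over all tested genes, and 31 of 42 members had a negative value, beside 55.3% of all genes. The median was -0.06, with 23 members negative, without wild-type animal 2 on water, and -0.05 with the trend over length and GC content removed; leaving out each of the other 7 animals gave -0.19 to -0.13. Groups did not overlap for 6 members, the 3 with the smallest p and Ifit2, Usp18 and Gbp3, beside 23.8% of all genes. The other 38 members did not pass the test. As these are bulk tissue samples, fewer cells of a type and less RNA per cell cannot be told apart in any of these differences.

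Irf7, the transcription factor that amplifies the type I interferon response, showed the largest genotype difference of any member. On GRCm38 in GENCODE M21 it lies on chr7:141262706-141266481, minus strand, and 45 of its exonic bases overlap Phrf1 on the opposite strand. Wild-type animals on water had 7.85, 15.1, 6.64 and 11.8 RPKM, and wild-type animals on bicarbonate had 11.3, 5.44, 4.21 and 6.55. Knockout animals on water had 2.84, 2.64, 3.44 and 2.59 RPKM, and knockout animals on bicarbonate had 2.29, 2.90, 2.50 and 2.50. Every wild-type animal was above every knockout animal, and the wild-type values were widely spread while the knockout values were not. The group means on water were 10.3 ± 3.85 and 2.88 ± 0.391 RPKM (SD, n = 4 each). Irf7 was 3.35-fold lower in the knockout on water (log2 difference -1.74, SE 0.27, limma adjusted p = 0.000364). On bicarbonate it was 2.47-fold lower (log2 difference -1.31, SE 0.27, limma adjusted p = 0.00387).

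The other transcription factors of the list did not follow Irf7. Irf9, the DNA-binding partner of Stat2, averaged 9.75 ± 1.38 RPKM in wild-type animals and 8.46 ± 0.613 in knockout animals on water (SD, n = 4 each). Stat2, which carries the activating domain of that complex, averaged 4.87 ± 0.669 and 5.16 ± 0.537 RPKM in the same groups. Irf1, a factor induced mainly by interferon gamma, averaged 7.74 ± 1.37 and 7.57 ± 1.79 RPKM. None of these 3 passed the test between genotypes on either drink, and their groups overlapped.

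Ifitm3 was higher in the knockout on both drinks. The gene lies on chr7:141009586-141010770, minus strand, 0.252 Mb from Irf7 on the same chromosome. Wild-type animals on water had 42.8, 36.9, 36.0 and 33.5 RPKM, and those on bicarbonate had 41.9, 32.3, 43.8 and 31.1. Knockout animals on water had 73.8, 57.6, 70.3 and 75.6 RPKM, and those on bicarbonate had 58.1, 61.2, 67.1 and 59.5. Every knockout animal was above every wild-type animal. Ifitm3 was 1.85-fold higher on water (log2 difference 0.89, SE 0.12, limma adjusted p = 0.000106) and 1.66-fold higher on bicarbonate (log2 difference 0.73, SE 0.12, limma adjusted p = 0.000667). Its annotated transcript is 678 bases long, and genes of at most 1000 bases were higher in the knockout as a class: their median log2 difference on water was 0.38 over 500 genes, 48.2% of which passed the test. With the trend over length and GC content removed from each library, the log2 difference of Ifitm3 on water was 0.41 and still passed the test (limma adjusted p = 0.0145), and on bicarbonate it was 0.48 (limma adjusted p = 0.00668).

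Lgals3bp was the member with the smallest p between genotypes. It lies on chr11:118392751-118402092, minus strand. Wild-type animals on water had 43.7, 40.7, 39.6 and 37.5 RPKM, and those on bicarbonate had 40.0, 35.4, 49.1 and 35.6. Knockout animals on water had 118, 66.2, 86.8 and 99.8 RPKM, and those on bicarbonate had 72.6, 79.1, 80.5 and 84.5. The genotypes did not overlap, and the knockout animals on water were the most spread. Lgals3bp was 2.25-fold higher in the knockout on water (log2 difference 1.17, SE 0.14, limma adjusted p = 4.92e-05) and 1.99-fold higher on bicarbonate (log2 difference 0.99, SE 0.14, limma adjusted p = 0.000262).

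Irgm1, which lies on chr11:48861968-48871683, minus strand, differed by less. Wild-type animals on water had 30.8, 32.8, 24.8 and 25.3 RPKM and knockout animals on water had 25.5, 22.1, 22.4 and 20.5. Wild-type animals on bicarbonate had 21.9, 21.2, 25.5 and 21.3 RPKM and knockout animals on bicarbonate had 18.1, 18.9, 17.4 and 18.9. The genotypes overlapped on water through knockout animal 1 and did not overlap on bicarbonate. Irgm1 was 1.25-fold lower in the knockout on water (log2 difference -0.32, SE 0.10, limma adjusted p = 0.0292). On bicarbonate the difference was -0.29 (SE 0.10, limma adjusted p = 0.0532), which missed the threshold. The call on water was lost in 8 of 16 alternative analyses, with adjusted p up to 0.192 when the length and GC trend was removed. It was also lost without wild-type animal 1 (limma adjusted p = 0.0811), without wild-type animal 2 (0.0979) and without knockout animals 2 (0.0638), 3 (0.0601) or 4 (0.0834) on water.

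**Figure D2:**
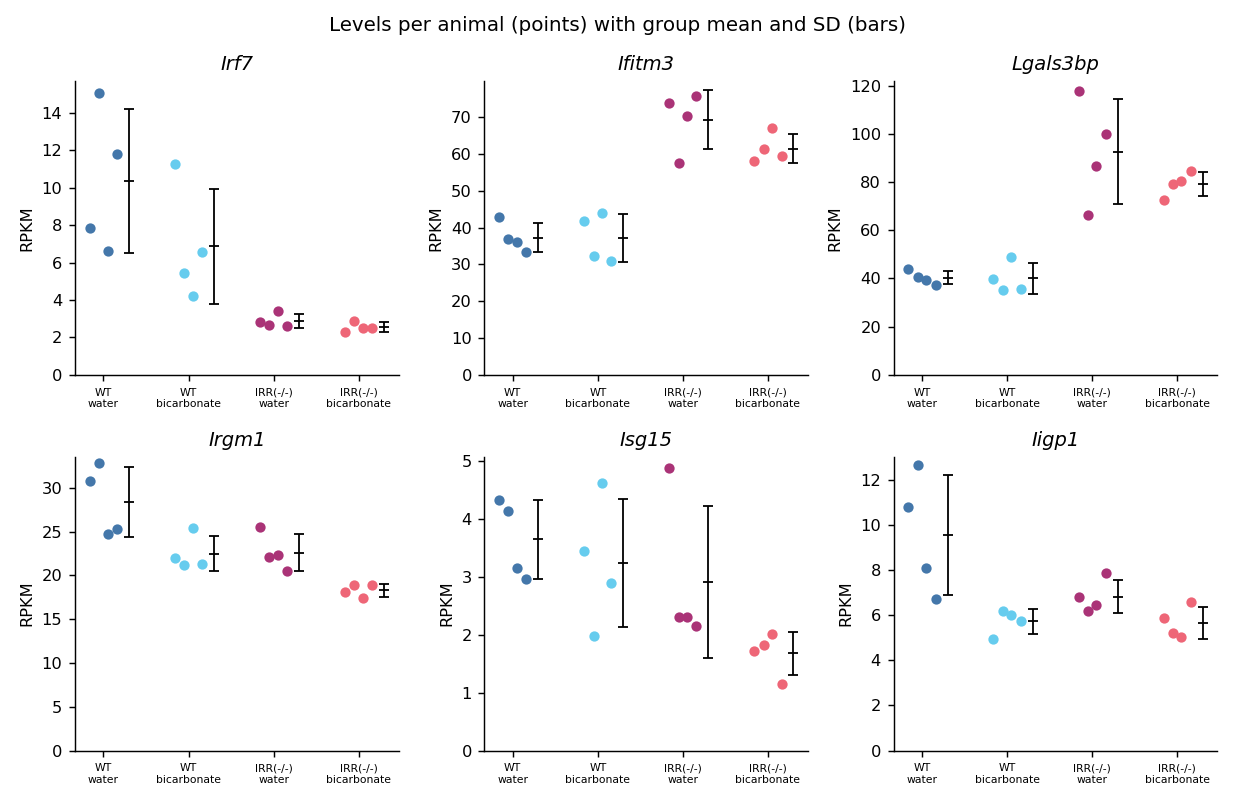
RPKM of 6 members in every animal, by group (points are animals, the dash is the group mean, error bars are the SD, n = 4). Irf7 is lower and Ifitm3 and Lgals3bp are higher in every knockout animal than in every wild-type animal, while Irgm1, Isg15 and Iigp1 overlap between groups or differ by less.

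On bicarbonate, 4 members again differed between genotypes: Lgals3bp and Ifitm3 were higher in the knockout, and Irf7 and Isg15 were lower. The background in this comparison was 18.4% of all tested genes, 9.03% higher and 9.36% lower. The members' median log2 difference was 0.06, beside -0.02 over all genes, and 23 of 42 members had a positive value, beside 48.1% of all genes. That median was 0.12 without knockout animal 1 and 0.02 without knockout animal 4 on bicarbonate, and 0.03 with a pseudocount of 1. Groups did not overlap for 7 members, beside 22.8% of all genes; these were the 3 named on both drinks with Irgm1, Parp9, Rsad2 and Sp100. The 2 comparisons between genotypes use separate animals.

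Isg15, the ubiquitin-like modifier that gives the ISG15 pathway its name, lies on chr4:156199424-156200818, minus strand. Wild-type animals had 4.33, 4.13, 3.15 and 2.96 RPKM on water and 3.44, 1.97, 4.62 and 2.90 on bicarbonate. Knockout animals had 4.88, 2.31, 2.30 and 2.15 RPKM on water and 1.72, 1.83, 2.01 and 1.15 on bicarbonate. Knockout animal 1 on water had the highest value of all 16, and on bicarbonate the genotypes overlapped only through wild-type animal 2. Isg15 was 1.83-fold lower in the knockout on bicarbonate (log2 difference -0.87, SE 0.28, limma adjusted p = 0.0432). On water the difference was -0.38 (SE 0.28, limma adjusted p = 0.370), and the interaction of genotype and drink was -0.49 (SE 0.40, limma adjusted p = 0.761). The call on bicarbonate was lost in 9 of 16 alternative analyses, among them without wild-type animal 1 (limma adjusted p = 0.0973), 3 (0.118) or 4 (0.0674) and without each knockout animal on bicarbonate (0.0661, 0.0662, 0.0521 and 0.130 for animals 1 to 4).

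The rest of the ISG15, ubiquitin and ADP-ribose group gave no other call between genotypes. Usp18, the protease that removes ISG15 and dampens receptor signalling, had 3.02, 2.29, 2.19 and 2.08 RPKM in wild-type animals and 1.79, 1.73, 1.85 and 1.96 in knockout animals on water. These animals did not overlap, but the difference of -0.35 did not pass the test (SE 0.15, limma adjusted p = 0.103). Parp9 and Dtx3l, which act as an ADP-ribosylating and ubiquitin ligase pair, and Parp14, a related enzyme, kept adjusted p above the threshold on both drinks. The ubiquitin ligases Trim25, Trim30a and Rnf213 did so too.

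Among the antiviral effectors, 1 of 13 (Ifitm3) passed the test on each drink. Ifit2, of the same RNA-binding family as Ifit1 and Ifit3, had 9.53, 10.4, 9.56 and 9.22 RPKM in wild-type animals and 8.28, 7.39, 7.41 and 5.54 in knockout animals on water. All 4 knockout animals were lower, and the difference of -0.44 missed the threshold (SE 0.16, limma adjusted p = 0.0642). Rsad2 (viperin, which makes a chain-terminating nucleotide) averaged 14.5 ± 3.26 RPKM in wild-type animals and 18.9 ± 2.16 in knockout animals on bicarbonate (SD, n = 4 each), with a log2 difference of 0.41 that did not pass (SE 0.17, limma adjusted p = 0.115). Eif2ak2 (PKR, which halts translation), Adar (which edits double-stranded RNA), Bst2 (tetherin), Oas1a, Oasl2, Ifit1, Ifit3, Xaf1 (which counters the apoptosis inhibitor XIAP), Ifi44 and Ifi27l2a gave no call on either drink. Ifi27l2a, a short interferon-induced gene of 463 bases, had the lowest log2 difference in this group, at -1.01 on water and -1.15 on bicarbonate, with a wide spread (16 values from 1.36 to 18.8 RPKM).

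None of the 4 nucleic acid sensors and none of the 3 antigen processing members passed the test between genotypes. Ddx58 averaged 24.1 ± 1.12 RPKM in wild-type animals and 25.7 ± 5.66 in knockout animals on water, and Ifih1 (the RNA sensor MDA5) averaged 5.85 ± 0.516 and 4.77 ± 0.519 (SD, n = 4 each). Zbp1 had 0.909, 2.51, 0.289 and 0.212 RPKM in wild-type animals and 2.10, 0.966, 2.15 and 1.01 in knockout animals on water, so the groups overlapped. Dhx58 ran from 0.544 to 2.13 RPKM over the 16 libraries. Tap1, a subunit of the peptide transporter that feeds MHC class I, had 3.65, 4.56, 5.90 and 2.66 RPKM in wild-type animals and 6.83, 4.85, 5.96 and 6.72 in knockout animals on water. Its difference of 0.57 did not pass (SE 0.25, limma adjusted p = 0.122). The immunoproteasome subunits Psmb8 and Psmb9 ran from 2.05 to 6.50 and from 0.863 to 3.54 RPKM, with all groups overlapping. Among the GTPases, Irgm1 was the only 1 of 7 called. Gbp3 did not overlap on water, with 15.1 to 17.1 RPKM in wild-type animals and 5.60 to 14.4 in knockout animals. Its difference of -0.87 did not pass (SE 0.41, limma adjusted p = 0.150). Igtp, with 5.72 to 13.0 RPKM over all libraries, came near on water at -0.43 (SE 0.16, limma adjusted p = 0.0611). Gbp2 and Gbp7 ran from 5.10 to 9.76 and from 4.88 to 8.48 RPKM and were not called. Of the 3 remaining members, Lgals3bp was called and Ifi35 and Sp100, a scaffold of nuclear bodies, were not.

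**Figure D3:**
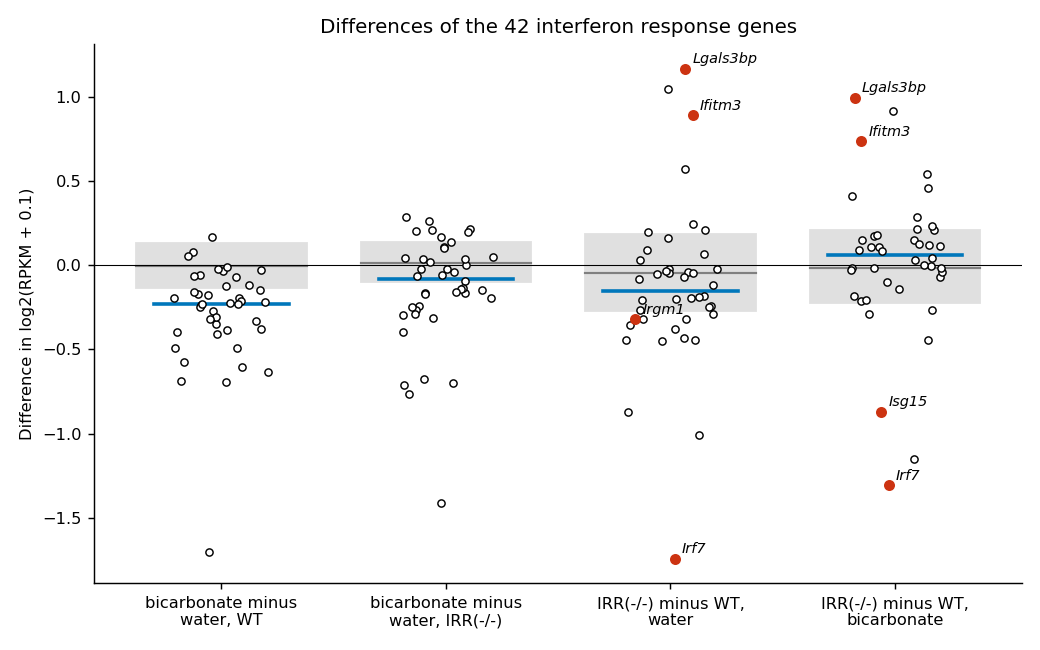
Log2 difference of every member (points; red marks a limma adjusted p below 0.05) in the 4 comparisons of group pairs, with the members' median as a blue line and the median and interquartile range of all tested genes as a grey line and box. In wild type on bicarbonate 39 of 42 points lie below 0 and none is called. Between genotypes the called members lie on both sides of 0, and some members that are not called lie farther from 0.

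Bicarbonate called no member in wild type. Of the 42 members, 0 passed the limma test, beside 0.139% of all tested genes, and at an unadjusted p under 0.05 there were 9 members lower and 0 higher, beside 6.42% and 5.55% of all genes. The direction was one-sided: 39 of 42 members had a negative log2 difference, beside 51.4% of all genes, and the members' median was -0.23, beside -0.01 over all genes. Every one of the 13 antiviral effectors, 7 GTPases, 4 transcription factors and 3 antigen processing members had a negative value. The 3 exceptions were Ifi35 at 0.17, Zbp1 at 0.08 and Trim25 at 0.05. The negative count ran from 34 to 40 and the median from -0.33 to -0.15 when each of the 8 animals was left out in turn. The least negative median came without wild-type animal 2 on water.

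The smallest p in wild type belonged to Iigp1, an immunity-related GTPase. Its levels were 10.8, 12.6, 8.08 and 6.70 RPKM on water and 4.95, 6.19, 6.00 and 5.75 on bicarbonate, so the groups did not overlap. Iigp1 differed by -0.69 on the log2 scale (SE 0.17, limma adjusted p = 0.105). Trim30a, a ubiquitin ligase that restrains Toll-like receptor signalling, had 5.43, 9.17, 5.20 and 6.67 RPKM on water and 3.77, 3.49, 3.88 and 4.77 on bicarbonate, also without overlap. Its difference was -0.69 (SE 0.18, limma adjusted p = 0.133). Irgm1 came next at -0.33 (SE 0.10, limma adjusted p = 0.184), and wild-type animal 3 on bicarbonate, at 25.5 RPKM, lay within the water range. Groups did not overlap for 3 of 42 members, Iigp1, Trim30a and Dtx3l, all lower on bicarbonate, beside 3.31% of all genes that were lower without overlap.

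In the knockout, bicarbonate called 0 of 42 members, beside 0.0232% of all tested genes. At an unadjusted p under 0.05 there were 6 members lower and 0 higher, beside 4.03% and 3.96% of all genes. A negative value was found for 26 of 42 members, beside 46.7% of all genes, and the median was -0.08, beside 0.01. The median was -0.04 without knockout animal 1 and -0.14 without knockout animal 2 on water, and -0.05 without knockout animal 2 and -0.14 without knockout animal 3 on bicarbonate; the negative count ran from 23 to 32 over the 8 animals left out in turn. Irgm1 had the smallest p, at -0.30 (SE 0.10, limma adjusted p = 0.440). Groups did not overlap for 5 members that were lower on bicarbonate (Irgm1, Tap1, Isg15, Parp9 and Zbp1), beside 2.94% of all genes, and for 1 that was higher (Usp18), beside 2.72%. Tap1 fell short of the threshold with 6.83, 4.85, 5.96 and 6.72 RPKM on water and 2.70, 3.08, 4.69 and 3.90 on bicarbonate. Every Tap1 value on bicarbonate was below every value on water, at a difference of -0.76 (SE 0.25, limma adjusted p = 0.442). Isg15 differed by -0.70 (SE 0.28, limma adjusted p = 0.555), a value that was -0.43 without knockout animal 1 on water.

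The wild-type and knockout responses to bicarbonate rest on separate animals. Both were negative for 24 of 42 members (57.1%), beside 24.9% of all tested genes, and both were positive for 1 (Trim25). Another 15 members were negative in wild type and positive in the knockout (35.7%), beside 26.4% of all tested genes. With 39 of 42 negative in wild type and 26 of 42 in the knockout, counts of this size arise without gene-by-gene agreement. They therefore do not show a response shared by both genotypes. No member passed the test of the interaction, beside 0.0155% of all genes; at an unadjusted p under 0.05 there were 2 members higher and 1 lower, beside 4.20% and 3.99% of all genes. The interaction, which is the knockout response minus the wild-type response, had a median of 0.18 over the members, beside 0.02 over all genes. It was positive for 31 of 42 members, beside 53.4% of all genes. Wild-type animals on water enter the interaction, the wild-type response and the genotype comparison on water. The one-sided counts of those comparisons therefore do not rest on separate animals. The median of the interaction was 0.10 without wild-type animal 2 on water and 0.11 without knockout animal 3 on bicarbonate. Its smallest p values belonged to Usp18 at 0.57 (SE 0.21, limma adjusted p = 0.546), Ifi35 at -0.46 (SE 0.18, limma adjusted p = 0.565) and Ifit2 at 0.55 (SE 0.23, limma adjusted p = 0.575). Usp18 had 1.67, 1.74, 1.90 and 2.35 RPKM in wild-type animals and 2.28, 2.01, 1.97 and 2.66 in knockout animals on bicarbonate, the reverse of its order on water, with overlap. Ifi35, a protein that pairs with the interferon-induced Nmi, had 6.74, 5.93, 5.90 and 6.26 RPKM in wild type on water and 7.36, 6.97, 6.41 and 7.23 on bicarbonate. In the knockout Ifi35 had 9.04, 6.30, 6.72 and 6.69 RPKM on water and 6.25, 4.71, 7.05 and 5.45 on bicarbonate, so knockout animal 1 on water stood highest and the groups overlapped.

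With the responses of both genotypes averaged, 40 of 42 members had a negative value, beside 48.0% of all genes, and the median was -0.14, beside 0.01. No member was called, beside 0.440% of all genes, and 8 were lower and 0 higher at an unadjusted p under 0.05, beside 6.02% and 5.28%. Irgm1 came nearest at -0.31 (SE 0.07, limma adjusted p = 0.0663), then Trim30a at -0.55 (SE 0.13, limma adjusted p = 0.0899) and Iigp1 at -0.48 (SE 0.12, limma adjusted p = 0.111). Leaving out 1 animal brought 1 member past the threshold in 2 cases. These were Iigp1 at -0.55 without wild-type animal 4 on water (limma adjusted p = 0.0433) and Irgm1 at -0.34 without wild-type animal 3 on bicarbonate (limma adjusted p = 0.0439).

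Single animals carried much of the members' spread. The median of the 42 members, each taken as the log2 difference from its mean over all 16 libraries, was 0.24, 0.39, 0.09 and -0.03 in the wild-type animals on water. It was -0.06, -0.10, -0.06 and -0.05 in the wild-type animals on bicarbonate, 0.17, -0.04, 0.01 and -0.06 in the knockout animals on water and -0.18, -0.13, 0.05 and 0.07 in the knockout animals on bicarbonate. Wild-type animals 1 and 2 on water were thus the highest of all 16, and wild-type animals on bicarbonate were close to each other. Wild-type animal 2 on water was highest in its group for 23 of 42 members, beside 24.7% of all tested genes, and knockout animal 1 on water was highest in its group for 22, beside 25.7%. Wild-type animal 4 on water was lowest in its group for 26 members, beside 22.8%, and knockout animal 1 on bicarbonate for 25, beside 29.7%. Wild-type animal 2 on water also held the highest of all 16 values for 16 of 42 members, beside 9.36% of all tested genes. The medians over all tested genes stayed between -0.02 and 0.03 in the 16 libraries.

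**Figure D4:**
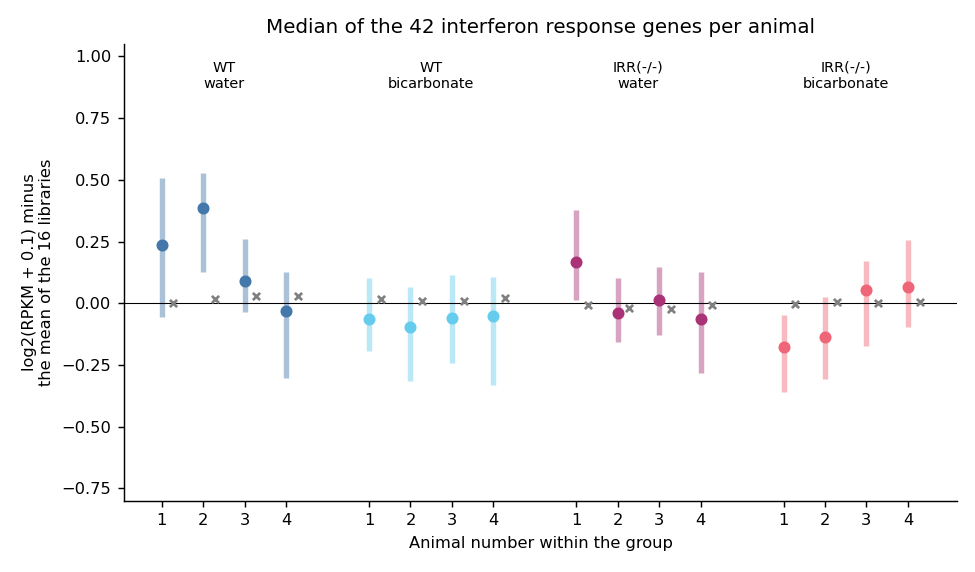
Median over the 42 members of the log2 difference from the mean of all 16 libraries, per animal (point), with the interquartile range over members (bar) and the median over all tested genes (cross). Wild-type animals 1 and 2 on water stand highest at 0.24 and 0.39, and the crosses stay near 0.

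The signalling pathway above these genes was read through lists of its parts. Interferon ligand genes are not analysed here, since 0 of 10 listed were among the genes of the table. Bicarbonate called 0 genes of any pathway list in either genotype, beside 0.139% of all tested genes in wild type and 0.0232% in the knockout. Of 8 receptor and kinase genes, 1 was higher and 2 were lower in the knockout on each drink. Over all tested genes, 10.1% were higher and 11.8% lower on water, and 9.03% and 9.36% on bicarbonate. Ifngr1, the ligand-binding chain of the interferon gamma receptor, had 34.5, 19.5, 53.6 and 30.2 RPKM in wild type on water and 17.9, 18.0, 20.3 and 19.0 in the knockout on water. It had 35.9, 27.8, 42.2 and 46.2 RPKM in wild-type animals and 21.3, 18.2, 18.3 and 17.2 in knockout animals on bicarbonate. The groups overlapped on water through wild-type animal 2 and did not overlap on bicarbonate. Ifngr1 was lower by a log2 difference of -0.78 on water (SE 0.23, limma adjusted p = 0.0223) and -0.99 on bicarbonate (SE 0.23, limma adjusted p = 0.00692), and the call on water was lost without wild-type animal 1 (0.0521) or 3 (0.0572) or knockout animal 1 (0.0521) or 2 (0.0502), and in a fit of these 2 groups alone (0.0691).

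Ifngr2, the signalling chain of that receptor, was lower too. It had 7.52, 11.8, 10.2 and 10.8 RPKM in wild-type animals and 5.84, 5.53, 4.98 and 8.95 in knockout animals on water. On bicarbonate it had 12.4, 11.3, 13.5 and 11.7 RPKM in wild-type animals and 7.98, 5.52, 5.42 and 5.61 in knockout animals. The groups overlapped on water and not on bicarbonate. The log2 differences were -0.68 on water (SE 0.18, limma adjusted p = 0.0143) and -0.999 on bicarbonate (SE 0.18, limma adjusted p = 0.00144). Of the type I receptor chains, Ifnar1 was not called on either drink and Ifnar2 was higher on bicarbonate, by 0.39 (SE 0.08, limma adjusted p = 0.00381), and not called on water, at 0.21 (limma adjusted p = 0.0841). Its interaction of 0.18 did not pass (limma adjusted p = 0.691). Jak1 was higher in the knockout on water by 0.30 (SE 0.10, limma adjusted p = 0.0347). The Jak1 call was lost in 7 of 16 alternative analyses, among them a fit of these 2 groups alone (limma adjusted p = 0.0555) and the fits without wild-type animal 1 (0.0972) or 2 (0.0691) or knockout animal 1 (0.101), 2 (0.0869) or 3 (0.0618).

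Irf3, the factor that starts interferon transcription after nucleic acid sensing, went the other way from Irf7. Wild-type animals had 2.08, 1.38, 2.40 and 1.45 RPKM on water and 2.66, 1.80, 3.16 and 1.51 on bicarbonate. Knockout animals had 6.64, 9.87, 7.32 and 4.90 RPKM on water and 5.95, 11.5, 9.40 and 10.3 on bicarbonate. Every knockout animal was above every wild-type animal. Irf3 was 3.76-fold higher on water (log2 difference 1.91, SE 0.27, limma adjusted p = 0.000181) and 3.99-fold higher on bicarbonate (log2 difference 1.99, SE 0.27, limma adjusted p = 0.000182). Irf2, which competes with Irf1 for the same DNA sites, was higher by 0.40 on water (SE 0.09, limma adjusted p = 0.00429) and 0.54 on bicarbonate (SE 0.09, limma adjusted p = 0.000569). Of the 5 transducer and regulatory factor genes tested, 2 were higher and 0 were lower in the knockout on each drink. Among all tested genes, 10.1% were higher on water and 9.03% on bicarbonate.

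Below the receptors, 1 of 11 sensing adaptor and kinase genes was higher in the knockout on each drink, beside 10.1% and 9.03% of all tested genes. It was Mavs, the mitochondrial adaptor of the RNA sensors, on water (log2 difference 0.28, SE 0.09, limma adjusted p = 0.0318) and Ticam1, the adaptor of Toll-like receptor 3, on bicarbonate (0.36, SE 0.09, limma adjusted p = 0.00939). The Mavs call was lost in 8 of 16 alternative analyses: with the length and GC trend removed (limma adjusted p = 0.0626), in a fit of these 2 groups alone (0.0502), and without wild-type animal 1 (0.0875), 2 (0.0545) or 3 (0.0627) or knockout animal 1 (0.0827), 2 (0.0715) or 4 (0.0798). Ticam1 kept its call in all 16. Of 7 negative regulators, none was called on either drink. At an unadjusted p under 0.05 there were 0 on water, beside 34.3% of all tested genes. On bicarbonate there were 1 higher and 0 lower at that level, beside 15.1% and 16.3%. Of 38 further interferon-stimulated genes, 2 were higher and 1 was lower in the knockout on water, while 4 were higher and 1 was lower on bicarbonate. The background was 21.9% of all tested genes on water and 18.4% on bicarbonate. Ifitm1, a close relative of Ifitm3, was higher by 0.98 on water (SE 0.17, limma adjusted p = 0.00100) and 0.98 on bicarbonate (SE 0.17, limma adjusted p = 0.00128). On water Shisa5 was higher by 0.32 (SE 0.09, limma adjusted p = 0.0253), a call lost in a fit of these 2 groups alone (0.0957) and without wild-type animal 1 (0.0741), 2 (0.0842) or 3 (0.0582) or knockout animal 2 (0.0668) or 3 (0.0661). Slfn2 was lower on water by a log2 difference of -0.52 (SE 0.18, limma adjusted p = 0.0487), which was at the threshold. Its call was lost in 12 of 16 alternative analyses, with adjusted p from 0.0505 without the filter on low values to 0.143 without knockout animal 2; of the animals, only leaving out wild-type animal 4 or knockout animal 1 kept it. On bicarbonate Samhd1, which depletes nucleotides, was higher by 0.63 (limma adjusted p = 0.00127) and kept its call in all 16 alternatives. Slfn5 was higher by 0.35 (limma adjusted p = 0.0223), a call lost in a fit of these 2 groups alone (0.0709) and without wild-type animal 1 (0.0715) or 3 (0.0563) or knockout animal 1 (0.0519) or 4 (0.0680). Ifi203 was higher by 0.47 (limma adjusted p = 0.0255), a call lost in a fit of these 2 groups alone (0.0521) and without wild-type animal 3 (0.0657) or knockout animal 3 (0.0658) or 4 (0.0685). Nmi, named after its values were seen, was lower by a log2 difference of -0.40 on bicarbonate (limma adjusted p = 0.0268), a call lost in 6 of 16 alternative analyses: with the length and GC trend removed (0.0741), in a fit of these 2 groups alone (0.0671), and without wild-type animal 1 (0.0782) or 4 (0.0551) or knockout animal 1 (0.0717) or 2 (0.0877). Ifitm2, another relative, averaged 64.4 ± 6.90 RPKM in wild-type animals and 71.7 ± 7.25 in knockout animals on water (SD, n = 4 each) and was not called.

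Of 16 MHC class I and immunoproteasome genes outside the members, 2 were higher and 2 lower in the knockout on water, while 2 were higher and 4 lower on bicarbonate. Over all tested genes, 21.9% were called on water and 18.4% on bicarbonate. Psme1, a subunit of the interferon-inducible proteasome activator, had 38.4 to 41.5 RPKM in wild-type animals and 92.6 to 114 in knockout animals on water, with no overlap (log2 difference 1.33, SE 0.08, limma adjusted p = 3.59e-08). It was also higher on bicarbonate, by 1.25 (SE 0.08, limma adjusted p = 8.33e-08). B2m, the light chain of MHC class I, was higher by 0.64 on water (SE 0.09, limma adjusted p = 0.000112) and 0.48 on bicarbonate (SE 0.09, limma adjusted p = 0.00149). With quantile normalization the B2m differences were 0.35 and 0.31, and both passed (limma adjusted p = 0.0126 and 0.0259). Tapbp (tapasin, which bridges Tap1 to the peptide-receiving heavy chain) was lower by a log2 difference of -1.63 on water (SE 0.32, limma adjusted p = 0.00213) and -1.49 on bicarbonate (SE 0.32, limma adjusted p = 0.00493). The heavy chain genes H2-K1, H2-Q4 and H2-T23 were lower on bicarbonate, with differences of -0.34, -0.56 and -0.38 (limma adjusted p = 0.0374, 0.0148 and 0.0122), and their reads can be shared with near-identical class I genes. H2-K1 and H2-Q4 were named after their values were seen, and the H2-K1 call was lost in 9 of 16 alternative analyses, with adjusted p up to 0.103 without knockout animal 4; of the animals on bicarbonate, only leaving out wild-type animal 2 kept it. Called genes of 1 pathway stood on both sides of 0 between genotypes, as did called genes in general (10.1% higher and 11.8% lower on water).

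**Figure D5:**
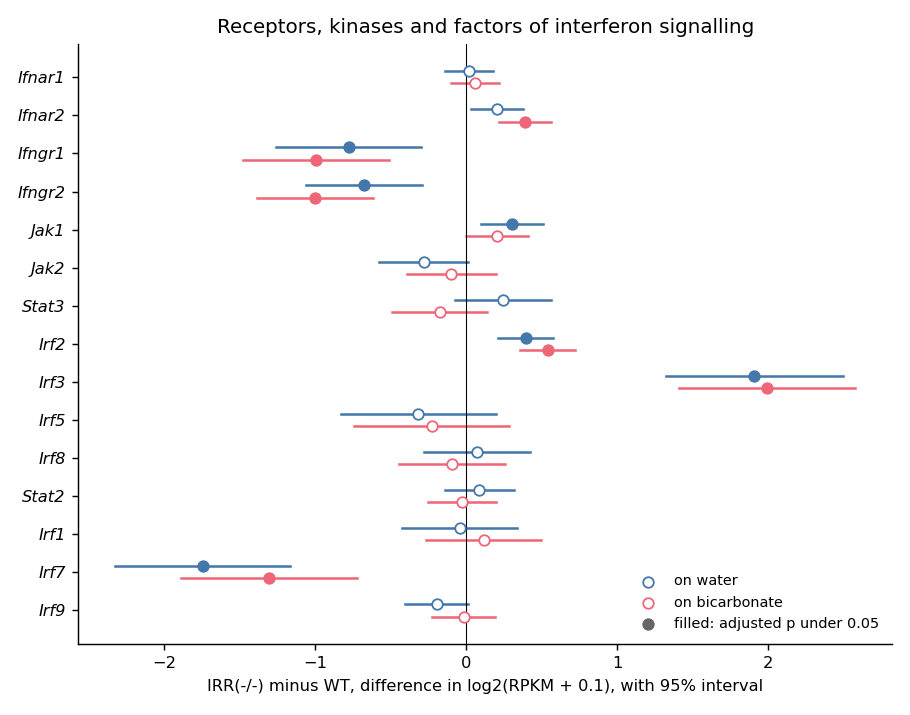
Log2 difference between knockout and wild type for pathway genes by role, on water and on bicarbonate (colours), with filled points for a limma adjusted p below 0.05. Lines are 95% intervals. Irf3 stands far above 0, and Irf7, Ifngr1 and Ifngr2 stand below 0 on both drinks.

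Leukocyte markers were low beside tubule markers in these slices, while the 7 endothelial markers summed to 231 to 299 RPKM over the 16 libraries. Ptprc, carried by all leukocytes, had 2.35 to 3.62 RPKM in the 16 libraries. Of the markers listed, 8 of 10 for T and NK cells, 5 of 6 for neutrophils and 4 of 6 for B cells were not among the genes of the table, and none of the present ones was at 0 in any library. The summed level of the 5 leukocyte markers was 28.4 to 37.8 RPKM in wild type on water, 28.3 to 34.4 in wild type on bicarbonate, 30.4 to 36.5 in the knockout on water and 26.7 to 36.4 in the knockout on bicarbonate. That of the macrophage and dendritic cell markers was 35.8 to 41.6, 30.2 to 39.5, 34.6 to 42.9 and 33.1 to 39.3 RPKM in the same order, so all 4 groups overlapped. Of the 5 leukocyte markers, Cd52 was higher in the knockout on water (log2 difference 1.25, SE 0.21, limma adjusted p = 0.000672). The other 4 had negative log2 differences on water and were not called. These were Ptprc at -0.24, Coro1a at -0.37, Laptm5 at -0.40 and Lcp1 at -0.06. None of the 8 tested macrophage and dendritic cell markers and none of the 7 endothelial markers was called in any comparison of genotypes. Col3a1, 1 of 6 stromal markers, was lower in the knockout on both drinks, as were Slc5a2 and Umod of the 8 tubule markers. Slc34a1, another tubule marker, was lower on water (log2 difference -0.34, SE 0.09, limma adjusted p = 0.0149). It was not called on bicarbonate (-0.20, limma adjusted p = 0.152). The background of lower genes was 11.8% of all tested genes on water and 9.36% on bicarbonate. The part of these markers in the members' differences was not tested.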

How the data were processed

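The authors deposited RPKM values, 1 column per library, in a table of 13430 genes from 16 kidney libraries. Salmon 1.5.2 and edgeR 3.34.0, and the builds GRCm39 and mm10, are named in the submitters' processing notes with no role, so the gene lengths and annotation behind the RPKM values are not given in the sources used here. The values gave back no whole reads, so depth is unknown and no counting interval is given. Gene IDs were matched to symbols, positions and lengths in GENCODE M21 (GRCm38), and all 13430 matched.

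Genes with at least 0.5 RPKM in at least 4 libraries were tested, which set 487 aside. limma 3.58.1 (R 4.3.3) was fitted to log2(RPKM + 0.1) with group means, trended and robust variances and 12 residual degrees of freedom, and tests were two-sided. The labels name 4 animals per group; nothing says that equal replicate numbers mark a shared litter or day. Deviations of same-numbered libraries from their group means correlated at -0.097 to 0.105, so the numbers were not taken as pairs. Among 24 pairs of libraries within groups, 0 were identical.

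Members and lists were chosen with earlier results of these data known. Values per library are given for members past the threshold, for the 3 smallest p where under 3 passed, and for up to 4 called genes per pathway list; 1 gene of these lists is not reported here. Alternatives were pseudocount 1, no filter, median-of-ratios scaling, quantile normalization, removal of a length and GC trend, other variance settings, other sample sets, the replicate block and leaving out each animal. The procedure was tested on simulated data in which genes varied independently. Members here rose and fell together in single animals, so that test does not bear on their counts or medians.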

Additional observations from a re-analysis of the deposited data

Results flagged for a closer look

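For the 42 members and their median in each of 4 groups, 172 sets of 4 values were examined, and 13 held 1 animal far from the other 3, with a gap of more than the 95% critical share of the group's range. Chance flags about 1 in 20 groups, which comes to 8.6 of 172.

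Knockout animal 1 on water stood apart upward for 3 members. Its Irgm2 level was 11.5 RPKM while the others had 4.15 to 4.37, its Isg15 level was 4.88 against 2.15 to 2.31, and its Ifi35 level was 9.04 against 6.30 to 6.72. Knockout animal 2 on water stood apart downward for Gbp2, a guanylate-binding GTPase, at 5.45 RPKM beside 7.04 to 7.25.

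Wild-type animal 3 on bicarbonate stood apart for 3 members and not in 1 direction. Its Gbp3 level was 3.27 RPKM beside 14.3 to 15.3, its Rsad2 level was 9.64 beside 15.5 to 16.7, and its Irgm1 level was 25.5 beside 21.2 to 21.9. Wild-type animal 4 on bicarbonate was low for Dhx58, at 0.582 RPKM beside 1.001 to 1.07.

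Wild-type animal 1 on water was high for Ifi27l2a, at 18.8 RPKM beside 4.87 to 6.99. Among knockout animals on bicarbonate, animal 4 was high for Dhx58 (1.88 RPKM beside 0.544 to 0.674). Animal 3 was high for Ifit1 (4.51 RPKM beside 3.67 to 3.71) and for the immunoproteasome subunit Psmb8 (5.55 RPKM beside 2.79 to 3.25). Animal 2 was low for Psmb9 (1.201 RPKM beside 2.75 to 2.90).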

How the results depend on the processing

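No result reversed under any alternative run. The bicarbonate comparisons within each genotype and the interaction kept 0 members called under every one. On water 1 member was called lower in the knockout with median-of-ratios scaling in place of 2, and leaving out each animal in turn gave 1 to 5, with 1 without wild-type animal 1 or 2 or knockout animal 2, 3 or 4 and 5 without wild-type animal 4. On bicarbonate 1 was called lower with a pseudocount of 1 in place of 2, and leaving out animals gave 1 to 2, with 1 without wild-type animal 1, 3 or 4 or knockout animal 2, 3 or 4. The averaged bicarbonate response gave 0 to 1. The cause was not tested. With the replicate block, which the pairing check did not favour, the counts of members called higher and lower were 2 and 2 on each drink and 0 elsewhere, as without it, while the genes called by bicarbonate in wild type fell from 18 to 2; on water Jak1 (limma adjusted p = 0.0537) and Slfn2 (0.0682) missed the threshold with the block. Irf7, Ifitm3, Lgals3bp, Irf3 and Psme1 kept their calls on both drinks in all 16 alternatives of each comparison. On water the members' median of -0.15 became -0.09 with quantile normalization and -0.05 once the trend over length and GC content was taken out. Depth is unknown, so what it limits among low members such as Zbp1 cannot be given.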

Other observations

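MHC class II genes, which interferon gamma induces through Ciita and which present peptides to helper T cells, were not among the members. Of 6 tested, 2 were called higher in the knockout on water and 1 on bicarbonate, and 0 were called lower on either drink. Over all tested genes, 10.1% were higher on water and 9.03% on bicarbonate. The list did not rise as a whole: 2 of the 6 had a negative log2 difference on water and 3 on bicarbonate. The median of the 6 was 0.05 on water and 0.14 on bicarbonate, and the lowest value on water was -1.64. H2-Ab1, a class II beta chain, averaged 23 ± 4.92 RPKM in wild-type animals on water and 54.6 ± 9.33 in knockout animals on water (SD, n = 4 each), and was 2.39-fold higher (log2 difference 1.26, SE 0.16, limma adjusted p = 6.63e-05). On bicarbonate H2-Ab1 averaged 24 ± 1.94 and 48.8 ± 7.04 RPKM, and was 2.02-fold higher (log2 difference 1.02, SE 0.16, limma adjusted p = 0.000507). Cd74, the invariant chain, was higher in the knockout on water by 0.59 (SE 0.13, limma adjusted p = 0.00371) and not on bicarbonate, at 0.34 (SE 0.13, limma adjusted p = 0.0716), and its interaction did not pass (limma adjusted p = 0.731).

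Red blood cell markers were lower in the knockout on bicarbonate for 2 of 5 genes, beside 9.36% of all tested genes. These were Hba-a2 at -1.89 (SE 0.47, limma adjusted p = 0.0132) and Alas2 at -1.02 (SE 0.33, limma adjusted p = 0.0429). The summed level below is of all 5 markers. The summed level of the 5 was 811 to 1550 RPKM in wild-type animals and 234 to 612 in knockout animals on bicarbonate, without overlap. On water the sums were 501 to 1572 and 373 to 2068 RPKM and overlapped.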
